A study of Mus musculus with 12 samples.

Results

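A set of 9 keratin genes of the mouse skin was followed in RNA sequencing of whole hindlimb tissue. 4 are wound keratins (Krt6a, Krt6b, Krt16 and Krt17) and 5 are keratins of resting epidermis (Krt5, Krt14, Krt1, Krt2 and Krt10). They were taken by gene symbol, and all 9 were found among the 45777 genes of the table. The tissue came from 3 groups of 4 libraries each. VtA limbs received a lymph node transfer together with ABTAA, an antibody that binds angiopoietin-2 and activates the endothelial receptor Tie2. VLNT limbs received the lymph node transfer without it, and LE limbs had lymphedema; whether the VtA and VLNT limbs had lymphedema too is not stated. The labels give no strain, sex, age, time point or course of surgery, and do not state that the replicates are separate animals, so p-values measure a spread between samples that may be technical. Libraries are named by group and replicate number, such as VtA3. The 9 genes were picked because their levels in these same libraries had been seen to differ, so their levels and ratios are given as a description, with no test.

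Keratins are the intermediate filament proteins of epithelial cells, and a filament forms from a type I and a type II partner. Basal keratinocytes, which divide, use the type II keratin Krt5 with the type I keratin Krt14. Cells that leave the basal layer switch to the type II keratin Krt1 with the type I keratin Krt10, and Krt2 is a type II keratin of the uppermost living layers. After injury, keratinocytes at the wound edge switch on the type II keratins Krt6a and Krt6b with the type I keratins Krt16 and Krt17. The wound keratins are also made without injury in parts of the hair follicle, in nail and in the thick skin of the sole.

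The type I genes lie together on chromosome 11 and the type II genes on chromosome 15. On GRCm38.p6, as RefSeq gives it, Krt16 is at chr11:100246091-100248902, Krt17 at chr11:100256215-100261029, Krt14 at chr11:100203162-100207510 and Krt10 at chr11:99385254-99397449. Krt6b is at chr15:101676023-101680293, Krt6a at chr15:101689928-101694305, Krt5 at chr15:101707069-101712905, Krt2 at chr15:101810689-101818956 and Krt1 at chr15:101845426-101850786. Krt6a and Krt6b are near-copies, with 97.6% of 1662 aligned coding positions identical, so they differ at 40 aligned positions. The stretch of 90 coding bases with the most differences between them, coding positions 787 to 876, is shown because a read over it can be given to the right gene. It lies at chr15:101692484-101692573 in Krt6a and chr15:101678303-101678392 in Krt6b on the minus strand of GRCm38, and capitals mark the 12 bases that differ.
Krt6a: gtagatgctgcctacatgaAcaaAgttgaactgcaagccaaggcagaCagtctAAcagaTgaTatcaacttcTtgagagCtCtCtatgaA
Krt6b: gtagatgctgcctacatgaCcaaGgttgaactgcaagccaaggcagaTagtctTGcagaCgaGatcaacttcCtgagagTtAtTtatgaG
Elsewhere the pair runs without a difference for up to 280 bases. Of all 100-base windows of the Krt6a transcript, 29.5% also occur in Krt6b. Of those of Krt16, 21.1% also occur in the predicted gene Gm11597. Krt6a and Krt6b also share windows with Gm5478 and Gm5414. In all, 34.0% of Krt6a windows, 30.6% of Krt6b windows and 24.3% of Krt16 windows occur in another gene. Krt6a shares 2.38% of the windows of Krt5, and Krt16 shares 2.88% of those of Krt14. Krt17, Krt1, Krt2 and Krt10 share 0 windows with any other gene. The sources used here do not say how reads that map to several places were counted, so single values of Krt6a, Krt6b and Krt16 are uncertain, and the effect on them was not tested.

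The amount of keratin RNA differed widely between libraries. The libraries had 56042030 to 72540147 counts. The 9 keratins took 0.00169%, 0.0685%, 0.626% and 0.353% of the counts in VtA1 to VtA4, 3.66%, 2.24%, 3.03% and 1.06% in VLNT1 to VLNT4, and 3.77%, 3.80%, 2.95% and 0.000732% in LE1 to LE4. All VtA libraries lay below all VLNT libraries. In bulk tissue, fewer epidermal cells and less keratin RNA per cell cannot be told apart, which is why wound and resting keratins were compared as a ratio within each library. Group means of that ratio use the 9 libraries with at least 0.1% of counts in the 9 genes. VtA2 was the nearest library below this limit and VtA4, at 0.353%, the nearest above it, while VtA1 held 953 keratin counts and LE4 held 513. Non-keratin genes of keratinocytes followed these shares only in part. The 12 genes of that list include Trp63, the master factor of stratified epithelia, and Dsp, the desmosome plaque protein. All 12 together summed to 9.13 to 1449 TPM in VtA, 1884 to 4050 TPM in VLNT and 8.08 to 6428 TPM in LE. LE1, with 3.77% of its counts in the 9 keratins, had 2624 TPM, against 6428 TPM in LE2 and 3777 TPM in LE3. Lad1 and Dsg3 were at 0 counts in VtA1 and LE4 and the other 10 were detected in all libraries. All 12 were lower in VtA than in VLNT (median log2 fold change -1.58, against -0.07 over all genes), and 0 were called by edgeR or DESeq2, with 0 at an unadjusted p under 0.05 in edgeR. TPM is a transcript level scaled by gene length and library total.

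The wound keratins were scarce in every VtA library and abundant in all VLNT libraries and in LE1 to LE3. Krt6a was at 0.0455, 2.77, 23.3 and 19.96 TPM in VtA1 to VtA4, at 2669, 1982, 3700 and 532 TPM in VLNT1 to VLNT4, and at 970, 3161, 2449 and 0 TPM in LE1 to LE4. Its near-copy Krt6b was at 0, 0.397, 4.29 and 3.98 TPM in VtA, at 2677, 2405, 4107 and 556 TPM in VLNT, and at 1466, 2924, 2735 and 0 TPM in LE. For both, every VtA library lay below every VLNT library, and among the LE libraries only LE4, the one almost without keratin reads, was as low. A count of 0 in LE4 allows up to 0.0428 CPM, counts scaled by library total.

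Krt16, the type I partner of the Krt6 proteins, followed the same order, and Krt17 was the least reduced of the 4. Krt16 was at 0.265, 1.82, 51.97 and 17.1 TPM in VtA, at 3189, 2735, 3758 and 739.6 TPM in VLNT, and at 5342, 3079, 2724 and 0 TPM in LE. Krt17, which is also made by hair follicles, was at 0, 29.6, 221 and 73.5 TPM in VtA, at 1409, 539, 883 and 372 TPM in VLNT, and at 2809, 2749, 1290 and 0.0529 TPM in LE. The gap between the highest VtA library and the lowest VLNT library was narrow for Krt17 (221 TPM in VtA3 against 372 TPM in VLNT4) and wide for Krt6b (4.29 TPM in VtA3 against 556 TPM in VLNT4).

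**Figure D1:**
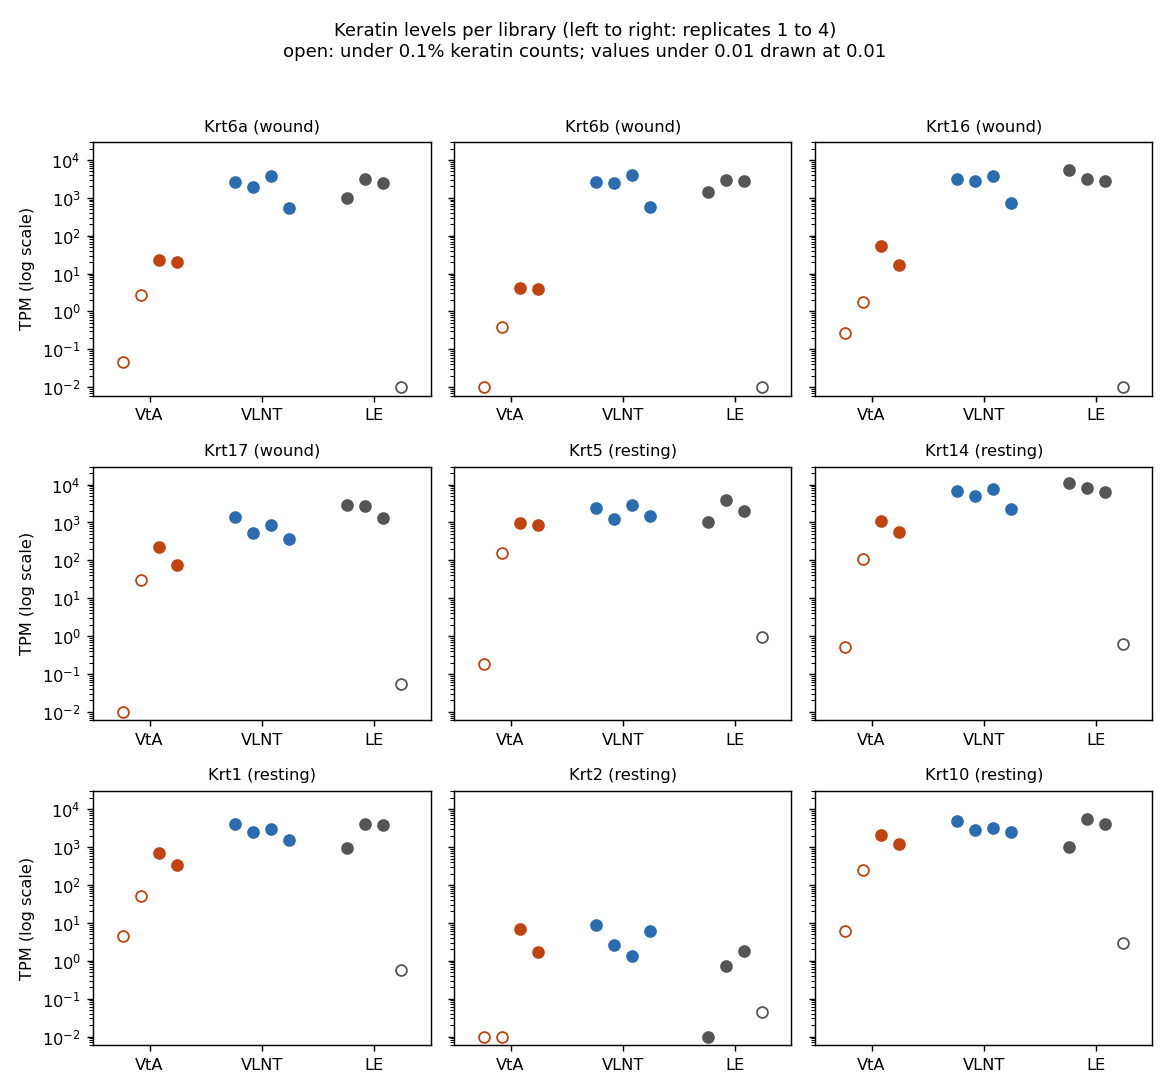
TPM of the 9 keratins in the 12 libraries (y axis, log scale; x axis, group, with replicates 1 to 4 left to right). Open points are the libraries under 0.1% keratin counts, and values under 0.01 are drawn at 0.01; Krt6a, Krt6b and Krt16 stand far lower in VtA than in VLNT, while Krt2 overlaps between the groups.

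Most resting keratins were also lower in VtA than in VLNT. Krt5 and Krt10 were closer to their VLNT levels than any wound keratin, whereas Krt14 and Krt1 were about as far below theirs as Krt17. Krt5 was at 0.179, 157, 987 and 833 TPM in VtA, at 2413, 1261, 2843 and 1441 TPM in VLNT, and at 1061, 4000 and 2034 TPM in LE1 to LE3 with 0.956 TPM in LE4. Its basal partner Krt14 was at 0.510, 107, 1077 and 574 TPM in VtA, at 6726, 4876, 7476 and 2203 TPM in VLNT, and at 11200, 8319, 6352 and 0.612 TPM in LE. The highest VtA library of Krt5 reached 987 TPM, close to the lowest of LE1 to LE3 (1061 TPM in LE1), whereas for Krt14 the same libraries were further apart.

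In the suprabasal pair, Krt10 kept more of its level than Krt1. Krt1 was at 4.40, 52.4, 692 and 342 TPM in VtA, at 4081, 2485, 2969 and 1580 TPM in VLNT, and at 942, 4195, 3883 and 0.582 TPM in LE. Krt10 was at 6.19, 246, 2094 and 1216 TPM in VtA, at 5037, 2772, 3126 and 2448 TPM in VLNT, and at 1004, 5592, 4145 and 2.91 TPM in LE. VtA3 thus lay above LE1 for Krt10 and below it for Krt1. Krt2, which in the mouse is known mainly from tail, ear and sole skin, was scarce everywhere, with 0, 0, 6.81 and 1.74 TPM in VtA, 8.78, 2.58, 1.31 and 6.08 TPM in VLNT, and 0.00954, 0.723, 1.78 and 0.0447 TPM in LE. Its groups VtA and VLNT overlapped.

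Set against the resting keratins of the same library, the wound keratins were about as abundant in VLNT as in LE and far scarcer in VtA. The wound to resting ratio, the summed TPM of the 4 wound genes over that of the 5 resting genes, was 0.0620 in VtA3 and 0.0386 in VtA4, against 0.545, 0.672, 0.758 and 0.287 in VLNT1 to VLNT4, and 0.746, 0.539 and 0.560 in LE1 to LE3. On the log2 scale this was -4.35 ± 0.48 in VtA (SD, n = 2), -0.91 ± 0.63 in VLNT (n = 4) and -0.72 ± 0.26 in LE (n = 3). The difference of means was -3.44 for VtA against VLNT, a 10.9-fold lower ratio in VtA, and -3.64 for VtA against LE, a 12.4-fold lower ratio in VtA. Both differences exceeded the SD within each group several times over, and VtA3 and VtA4 lay below all VLNT libraries and LE1 to LE3.

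The 3 libraries left out for their few keratin reads had ratios of 0.0276 in VtA1, 0.0615 in VtA2 and 0.0104 in LE4. VtA2, with 49144 keratin counts, repeated the ratio of VtA3, and including it gave a difference of -3.33 for VtA against VLNT. In counts, the wound genes made 4.55% of the keratin counts in VtA2 (95% Wilson interval 4.37% to 4.74%), 4.62% in VtA3 and 3.05% in VtA4, against 20.9% to 43.3% in VLNT and 33.8% to 41.8% in LE1 to LE3. In VtA1 the share was 2.1% (1.36% to 3.22%) of 953 counts, and in LE4 it was 0.780% (0.304% to 1.99%) of 513 counts. These intervals cover counting error only. LE4 therefore sat with the VtA libraries and not with its own group, and with all 12 libraries the difference was -2.29 for VtA against LE and -3.57 for VtA against VLNT.

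**Figure D2:**
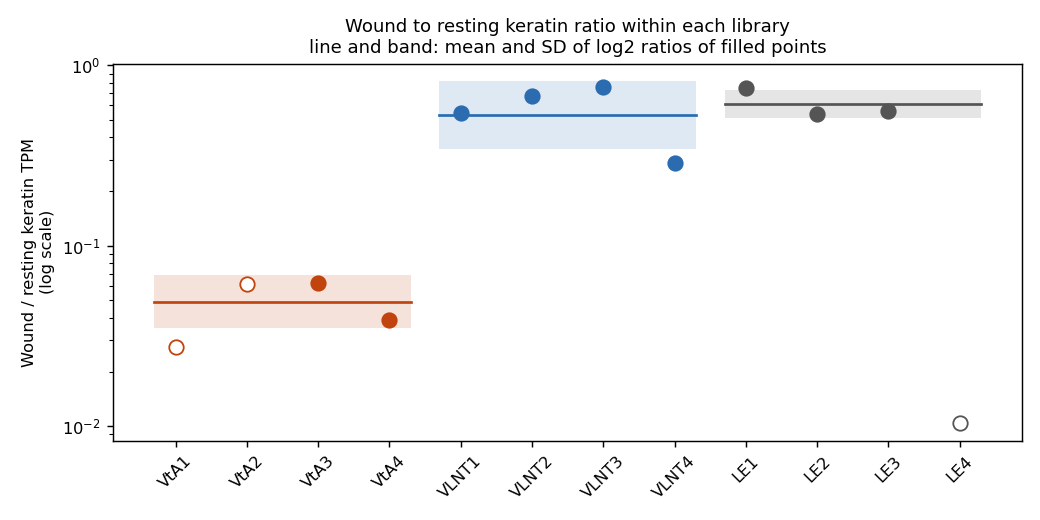
Summed TPM of Krt6a, Krt6b, Krt16 and Krt17 over that of Krt5, Krt14, Krt1, Krt2 and Krt10 in each library (y axis, log scale). Lines and bands are the mean and SD of the log2 ratios of the filled points, and open points have under 0.1% keratin counts; the VtA libraries lie between 0.0276 and 0.0620, and every VLNT library lies at 0.287 or above.

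VLNT and LE1 to LE3 were not separable by this ratio. Their log2 means differed by -0.20, less than the SD of either group, and the range of VLNT enclosed the LE values. VLNT4 had the lowest ratio of its group at 0.287, the lowest keratin share at 1.06%, and the highest summed level of 16 skeletal muscle genes (175600 TPM, against 57560 to 132000 TPM in VLNT1 to VLNT3). Without VLNT4 the difference was 0.10, and with LE4 it was 1.27, so its sign rests on those libraries.

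The 4 wound keratins did not go down together relative to the resting ones. Against the summed resting keratins, the log2 difference for VtA against VLNT was -7.14 for Krt6b, -4.63 for Krt6a, -4.47 for Krt16 and -0.73 for Krt17. The SD of the Krt17 value was 0.62 in VtA and 0.33 in VLNT. In VtA2 to VtA4, Krt6a to Krt5 was 0.0176, 0.0236 and 0.024, and Krt16 to Krt14 was 0.0171, 0.0483 and 0.0297. These ratios are near the shares of Krt5 windows that occur in Krt6a (2.38%) and of Krt14 windows that occur in Krt16 (2.88%). How many reads of Krt6a and Krt16 in VtA came from Krt5 and Krt14 was not tested. Krt17 made up most of the wound keratin in 3 VtA libraries: 85.6%, 73.6% and 64.2% of the wound sum in VtA2 to VtA4, against 14.2%, 7.04%, 7.09% and 16.9% in VLNT1 to VLNT4 and 26.5%, 23.1% and 14.0% in LE1 to LE3. VtA1 differed, with 0 counts of Krt17 and 85.4% of its wound sum from the 16 counts of Krt16. Set against Krt14 alone, Krt17 overlapped between the groups, with 0.278, 0.206 and 0.128 in VtA2 to VtA4, 0.111 to 0.210 in VLNT and 0.203 to 0.330 in LE1 to LE3. Without Krt17 the wound to resting difference for VtA against VLNT widened to -4.97.

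**Figure D3:**
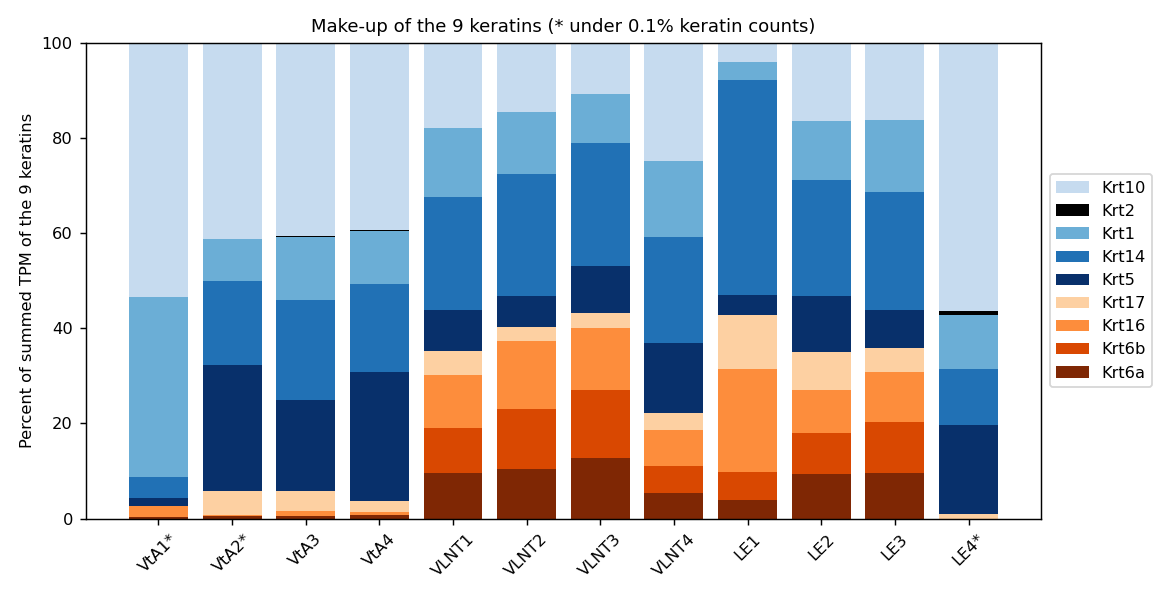
Share of each of the 9 keratins in their summed TPM (y axis, percent; x axis, library; an asterisk marks libraries under 0.1% keratin counts). The wound keratins, drawn in brown to pale orange at the bottom of each bar, take under 6% in the VtA libraries, where Krt10 takes 39.5% or more.

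The balance among the wound keratins differed in VtA. Krt6a to Krt6b stood at 6.98, 5.44 and 5.02 in VtA2 to VtA4, against 0.824 to 0.997 in VLNT and 0.662 to 1.08 in LE1 to LE3, so these near-copies were at close to equal levels in the last 2 groups and not in VtA. Krt17 to Krt16 stood at 16.3, 4.26 and 4.31 in VtA2 to VtA4, against 0.197 to 0.503 in VLNT and 0.474 to 0.893 in LE1 to LE3. In neither ratio did VtA2 to VtA4 overlap the other groups, although Krt6b rested on only 36, 413 and 347 counts in VtA2 to VtA4. The shares of Krt6a and Krt16 reads that came from genes sharing sequence, including Krt5 and Krt14, which are far more abundant in VtA, were not tested.

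The resting pairs shifted as well. Krt5 to Krt14, the basal partners, stood at 1.48, 0.917 and 1.45 in VtA2 to VtA4, against 0.259 to 0.654 in VLNT and 0.0947 to 0.481 in LE1 to LE3. Krt1 to Krt10, the suprabasal partners, stood at 0.213, 0.330 and 0.281 in VtA2 to VtA4, against 0.646 to 0.95 in VLNT and 0.750 to 0.938 in LE1 to LE3. The values of VtA2 to VtA4 lay outside those of VLNT and LE1 to LE3, on the high side for Krt5 to Krt14 and on the low side for Krt1 to Krt10. The libraries with few keratin reads went the other way: VtA1, at 0.351 for Krt5 to Krt14 and 0.711 for Krt1 to Krt10, lay within the VLNT ranges, and LE4, at 1.56 for the first and 0.1999 for the second, lay beyond VtA2 to VtA4. Over all 9 genes the type II to type I ratio was 0.555, 0.498 and 0.638 in VtA2 to VtA4, 0.714 to 0.894 in VLNT, and 0.218, 0.724 and 0.765 in LE1 to LE3, where LE1 was lowest.

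**Figure D4:**
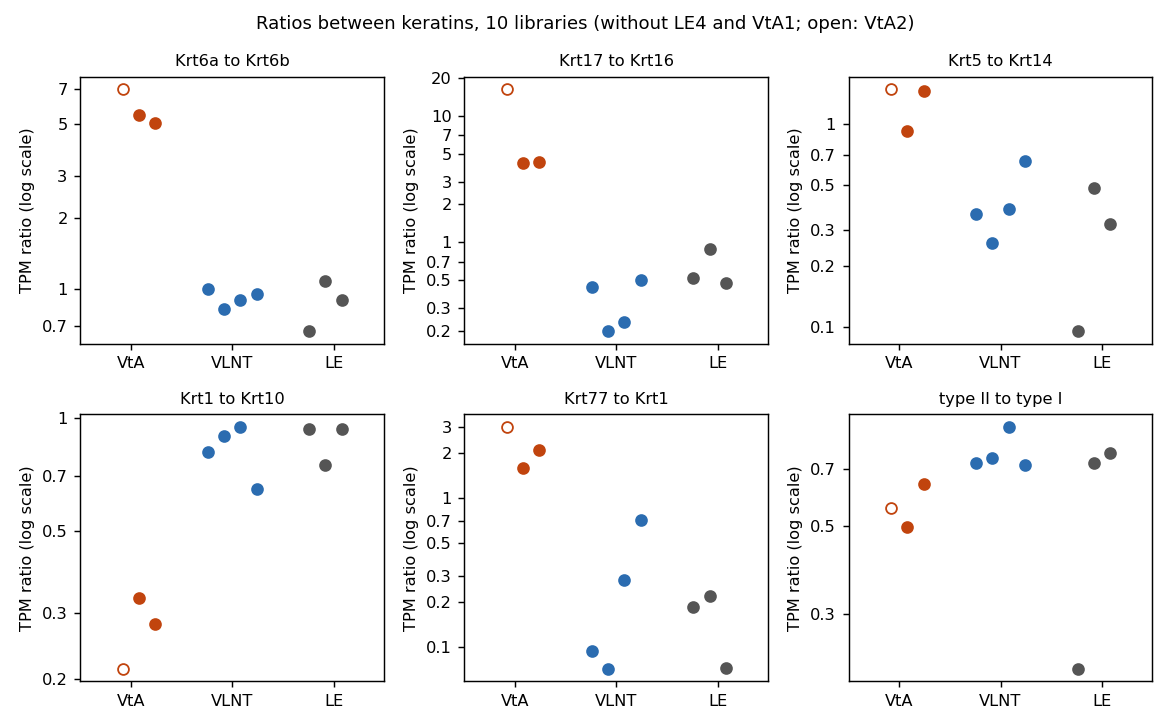
Ratios of TPM within each library for 6 pairs (y axes, log scale; x axes, group), in 10 libraries without VtA1 and LE4; the open point is VtA2. In 5 panels the VtA points lie apart from both other groups, and in the type II to type I panel LE1 lies below them.

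The balance of suprabasal to basal keratins showed less. The differentiation ratio, Krt1, Krt2 and Krt10 over Krt5 and Krt14, was 1.13, 1.35 and 1.11 in VtA2 to VtA4, against 0.999, 0.857, 0.591 and 1.11 in VLNT1 to VLNT4 and 0.159, 0.795 and 0.958 in LE1 to LE3. VtA4 and VLNT4 were at the same value. The log2 mean was 0.29 ± 0.20 in VtA (SD, n = 2), -0.21 ± 0.40 in VLNT (n = 4) and -1.02 ± 1.43 in LE (n = 3). The difference of 0.50 for VtA against VLNT was close to the spread within the groups. LE1 alone set most of the distance from LE: the difference for VtA against LE was 1.31 with it and 0.49 without it, and that for VLNT against LE was 0.81 with it and -0.01 without it. Among LE1 to LE3, LE1 was highest for Krt14, Krt16 and Krt17, whose transcripts have 1551 to 1698 bases. It was lowest there for Krt5, Krt1, Krt2, Krt10, Krt6a and Krt6b, of 2094 to 2613 bases. The muscle gene Ttn was at 4.09 TPM in LE1, the lowest of all libraries, and Tnni2 at 28100 TPM, the highest. The part of transcript length or RNA quality in the ratios of LE1 was not tested.

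In the fit across all 19740 genes with enough counts, which passed all 9 keratins, the same order of changes came out with wide errors. The log2 fold changes of the wound keratins for VtA against VLNT were -9.76 ± 2.58 for Krt6b, -7.21 ± 2.27 for Krt6a, -6.87 ± 2.31 for Krt16 and -2.96 ± 1.95 for Krt17 (SE, n = 4 each). Those of the resting keratins were -3.26 ± 1.86 for Krt14, -3.03 ± 1.55 for Krt1, -1.65 ± 1.62 for Krt5, -1.59 ± 1.41 for Krt10 and -0.90 ± 1.59 for Krt2. Without LE4 and VtA1, an alternative chosen after seeing the data, the changes moved little and the errors fell: -9.37 ± 1.12 for Krt6b, -6.82 ± 0.95 for Krt6a, -6.48 ± 1.26 for Krt16 and -2.57 ± 0.80 for Krt17, against -2.86 ± 0.88 for Krt14, -2.65 ± 0.75 for Krt1, -1.26 ± 0.59 for Krt5, -1.20 ± 0.65 for Krt10 and -0.50 ± 1.40 for Krt2.

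With all 12 libraries, edgeR's quasi-likelihood test called 0 of the 9 keratins at an adjusted p under 0.05 for VtA against VLNT, and 0.0% of all genes. At an unadjusted p under 0.05 it had 1118 genes, 5.66% of those tested. The CPM of 8 of the 9 keratins, all but Krt2, did not overlap between VtA and VLNT, where 8.32% of all genes were lower and 7.48% higher in VtA without overlap. DESeq2 called Krt6a, Krt6b and Krt16 lower among 190 genes, where 0.895% of all genes were called lower. The keratins were chosen on these libraries, so nothing is read from these counts.

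For VtA against LE the log2 fold changes were -9.28 ± 2.53 for Krt6b, -7.35 ± 2.36 for Krt16, -6.64 ± 2.21 for Krt6a and -4.34 ± 2.08 for Krt17, and those of the resting keratins ran between -3.85 ± 1.91 for Krt14 and 2.37 ± 1.67 for Krt2. With all 12 libraries edgeR called 0 keratins and 0.0% of genes, with 3256 genes (16.5%) at an unadjusted p under 0.05. DESeq2 called Krt6a, Krt6b and Krt16 lower among 797 genes, where 3.55% of all genes were called lower. The edgeR count rested on LE4: without it the test called 6288 genes, and without LE4 and VtA1 it called 4004 of 20359 genes, 19.7%, among them Krt6a, Krt6b, Krt16, Krt17, Krt14 and Krt1. With VtA2 left out as well, which leaves 2 VtA libraries, it called 0 genes, and 5514 had an unadjusted p under 0.05. Levels overlapped for all 9 keratins over 12 libraries, where 1.27% of genes were lower and 1.43% higher in VtA without overlap. In the 9 libraries with enough keratin reads 7 keratins were lower in VtA without overlap, where 21.9% of all genes were. Krt2 was higher in VtA without overlap, where 23.9% of all genes were. LE4, VtA1 and VtA2 had few keratin reads, so leaving them out used the keratins' own levels. Nothing is therefore read from the keratins called, or not overlapping, once these libraries were left out.

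For VLNT against LE the log2 fold changes of the wound keratins were smaller than their errors, with 0.57 ± 1.74 for Krt6a, 0.47 ± 1.77 for Krt6b, -0.48 ± 1.79 for Krt16 and -1.37 ± 1.84 for Krt17, and the widest of the resting keratins was 3.28 ± 1.73 for the scarce Krt2 (SE). EdgeR called 0 keratins and 0.0% of genes, with 396 genes (2.01%) at an unadjusted p under 0.05, and DESeq2 called 2 genes, neither of them one of the 9 keratins. Levels overlapped for all 9 keratins, where 0.177% of all genes were lower and 0.223% higher in VLNT without overlap. Krt17 was the wound keratin that differed most between these groups, at 372 to 1409 TPM in VLNT and 1290 to 2809 TPM in LE1 to LE3. The 3 comparisons share groups with each other, so they are not independent.

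Among 12 other keratins of the epidermis, Krt77, Krt15, Krt79 and the scarce Krt76 and Krt42 all overlapped between VtA and VLNT. All had lower means in VtA than in VLNT, at 496 against 630 TPM for Krt77 and 165 against 228 TPM for Krt15. Krt77, a keratin related to Krt1, was at 0, 159, 1100 and 724 TPM in VtA, at 386, 178, 834 and 1120 TPM in VLNT, and at 174, 927, 281 and 0.878 TPM in LE. Krt15, a basal keratin of follicle stem cells, was at 0, 76.9, 246 and 339 TPM in VtA, at 370, 118, 252 and 172 TPM in VLNT, and at 278, 1120, 406 and 0.279 TPM in LE. For both genes VtA3 and VtA4 lay within the VLNT range. Their fold change for VtA against VLNT changed sign with the libraries used: -0.05 ± 1.71 for Krt77 and -0.08 ± 1.63 for Krt15 with all 12, and 0.36 ± 0.73 for Krt77 and 0.30 ± 0.52 for Krt15 without LE4 and VtA1 (SE).

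Next to their member partners both stood out. Krt77 to Krt1 was 3.03, 1.59 and 2.12 in VtA2 to VtA4, against 0.0716 to 0.710 in VLNT and 0.0723 to 0.221 in LE1 to LE3. Krt15 to Krt14 was 0.722, 0.228 and 0.590 in VtA2 to VtA4, against 0.0241 to 0.0782 in VLNT and 0.0249 to 0.135 in LE1 to LE3. In both ratios the values of VtA2 to VtA4 lay above those of VLNT and LE1 to LE3, and VtA1 had 0 counts of Krt77 and Krt15. Of the 11 tested genes of the list 11 were lower in VtA than in VLNT (median log2 fold change -1.14, against -0.07 over all genes), edgeR called 0, with 2 at an unadjusted p under 0.05, and DESeq2 called Krt76. With LE4 and VtA1 left out, 9 were lower (median -0.75). In that fit Krt79 and Krt42 fell in VtA against LE, 2 of 11 genes, where 9.25% of all genes fell. Krt76 and Krt42 had the smallest p-values in VtA against VLNT. Krt76 was at 0 counts in all VtA libraries, at 1.53, 0.871, 1.46 and 0 TPM in VLNT, and at 0, 0.196, 0.0859 and 0 TPM in LE. Krt42 was at 0, 0, 0.177 and 0 TPM in VtA, at 2.55, 0.174, 0.290 and 0.158 TPM in VLNT, and at 1.60, 4.07, 4.75 and 0 TPM in LE. Krt79 was at 0, 27.6, 204 and 71.0 TPM in VtA, at 654, 115, 296 and 211 TPM in VLNT, and at 486, 1140, 577 and 0.0945 TPM in LE. All 3 overlapped between VtA and VLNT. Krt9, the keratin of palm and sole, was at 0 to 0.0902 TPM in VtA, 0.0668 to 0.115 TPM in VLNT and 0 to 0.129 TPM in LE, so this marker of sole skin was at or near 0 in every library.

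Hair follicle genes had lower fitted levels in VtA than in VLNT but did not track the wound ratio library by library. The 19 hair follicle keratins found, structural keratins of the hair shaft and its sheaths, summed to 0.0249, 1.40, 64.9 and 11.9 TPM in VtA1 to VtA4, to 3552, 319, 7.49 and 3.56 TPM in VLNT1 to VLNT4, and to 6.49, 12490, 2492 and 0.0210 TPM in LE1 to LE4. VtA3 and VtA4 lay above VLNT3, VLNT4 and LE1, all of which had a wound ratio of 0.287 or more. The wound ratio was 0.0620 in VtA3 and 0.0386 in VtA4. Krt75, the keratin of the follicle's companion layer, was at 0, 0.853, 3.92 and 6.46 TPM in VtA, at 61.9, 6.29, 5.09 and 2.42 TPM in VLNT, and at 0.905, 297, 57.4 and 0 TPM in LE, and overlapped between VtA and VLNT. In the fit all 19 were lower in VtA than in VLNT (median log2 fold change -6.05), with VLNT1 and VLNT2 holding the higher sums of VLNT. EdgeR called 0, with 8 at an unadjusted p under 0.05, and DESeq2 called Krt33b and Krt83. Of 12 other follicle markers, such as Tchh and Shh, 12 were lower (median -2.06) and 0 were called by edgeR or DESeq2, with 2 at an unadjusted p under 0.05 in edgeR.

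Genes that keratinocytes switch on at a wound edge or in overgrowing epidermis were scarce in VtA, as Krt6a and Krt16 were. Of 31 tested, 31 were lower in VtA than in VLNT (median log2 fold change -4.39) and 31 were lower in VtA than in LE (median -5.24). With all 12 libraries edgeR called 0 in both comparisons, with 23 in VtA against VLNT and 22 in VtA against LE at an unadjusted p under 0.05. DESeq2 called 16 and 20 of them lower in these comparisons, where 0.895% and 3.55% of all genes were called lower. Without LE4 and VtA1, 24 of the 31 fell in VtA against LE by edgeR's test, where 9.25% of all genes fell and 10.4% rose, and 0 were called in VtA against VLNT, where 0.00491% of all genes were. This list and this set of libraries were chosen with the data seen, so these counts and the p-values of the list's genes are a description. Gjb2, the gap junction protein connexin 26, was at 0.203, 0.203, 5.31 and 1.05 TPM in VtA, at 173, 133, 349 and 47.7 TPM in VLNT, and at 64.7, 403, 213 and 0.0634 TPM in LE. Its VtA and VLNT libraries did not overlap, and in the 10 libraries its log2 fold change in VtA against LE was -6.15 ± 1.11 (SE, edgeR adjusted p = 0.0148). Over the settings tried the adjusted p ran between 8.7e-05 with DESeq2 and 0.57 with edgeR without LE1.

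Several antimicrobial and cornified envelope genes of that list were near 0 in VtA. Sprr2d, a small proline-rich envelope protein, was at 0.0796, 0.217, 3.44 and 0.240 TPM in VtA, at 318, 331, 91.7 and 14.8 TPM in VLNT, and at 569, 904, 580 and 0 TPM in LE. In the 10 libraries its log2 fold change in VtA against LE was -8.79 ± 1.52 (SE, edgeR adjusted p = 0.0148), and over the settings tried the adjusted p ran between 4.7e-07 with DESeq2 and 0.57 with edgeR without LE1. Defb4, a beta-defensin, was at 0 counts in all VtA libraries, at 7.24, 3.06, 4.72 and 0.430 TPM in VLNT, and at 1.92, 8.58, 10.7 and 0 TPM in LE. Il24, a cytokine of wounded epidermis, was at 0 to 0.0787 TPM in VtA, at 0.688 to 11.7 TPM in VLNT and at 0 to 3.65 TPM in LE. For all 3 every VtA library lay below every VLNT library, and LE4 was again as low as VtA. Has3, a hyaluronan synthase, was the member with the smallest p in VtA against VLNT, at 0.964 to 1.47 TPM in VtA, 2.73 to 17.1 TPM in VLNT and 0.548 to 3.54 TPM in LE.

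That list shares genes with a list of neutrophil markers. S100a8 and S100a9, made by neutrophils and by stressed keratinocytes, were at 0.823 to 61.5 TPM and 1.42 to 99.7 TPM in VtA, at 69.4 to 1350 TPM and 81.8 to 1950 TPM in VLNT, and at 0.569 to 7850 TPM and 0.977 to 18300 TPM in LE. The other 10 neutrophil genes summed to 0.945, 83.9, 3.79 and 1.33 TPM in VtA1 to VtA4, to 38.1, 20.7, 73.6 and 5.73 TPM in VLNT1 to VLNT4, and to 172, 64.3, 37.9 and 0.352 TPM in LE1 to LE4. VtA2 had more of these neutrophil genes than any VLNT library and nearly the same wound ratio as VtA3, in which Ly6g and Camp were at 0 counts. The wound-edge genes outside the neutrophil list summed to 18.7, 65.1, 274 and 87.6 TPM in VtA, to 4974, 2269, 3524 and 643 TPM in VLNT, and to 4132, 7039, 4866 and 17.9 TPM in LE. These sums were lower in VtA without overlap with VLNT, and the part of neutrophils in them was not tested.

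Genes of the upper epidermal layers were lower in VtA by less than the wound-edge genes. Of 14 granular and cornified layer genes 14 were lower in VtA than in VLNT (median log2 fold change -1.92) and 13 were lower in VtA than in LE (median -1.66). EdgeR called 0 in both, with 4 in VtA against VLNT and 2 in VtA against LE at an unadjusted p under 0.05, and DESeq2 called Flg and Rptn in both. Without LE4 and VtA1, edgeR called 5 of the 14 lower in VtA against LE (Flg, Rptn, Casp14, Tgm1 and Klk7), where 9.25% of all genes were called lower. Flg, the filaggrin precursor that bundles keratins in the cornifying cell, was at 0.522, 1.91, 13.1 and 8.30 TPM in VtA, at 177, 177, 163 and 180 TPM in VLNT, and at 20.2, 242, 254 and 0.0113 TPM in LE. Rptn, an envelope protein akin to filaggrin, was at 0.286 to 2.28 TPM in VtA, at 63.0 to 205 TPM in VLNT, and at 120, 336, 398 and 0 TPM in LE. Neither overlapped between VtA and VLNT, and Flg in VLNT varied by little between its 4 libraries.

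The anchors and the regulators of keratins had medians nearer 0. Of 19 desmosome and hemidesmosome genes, which tie keratin filaments to cell contacts and to the basement membrane, 16 were lower in VtA than in VLNT (median log2 fold change -1.31), edgeR called 0, with 2 at an unadjusted p under 0.05, and DESeq2 called Dsc2. Without LE4 and VtA1, 3 of the 19 fell in VtA against LE (Dsc2, Pkp3 and Evpl) and 2 rose (Plec and Dst), where 9.25% of all genes fell and 10.4% rose. Plec and Dst are also expressed in muscle. Dsc2, a desmocollin, was at 0.131, 0.193, 0.853 and 0.881 TPM in VtA, at 11.4, 17.9, 20 and 2.55 TPM in VLNT, and at 4.64, 36.5, 27.5 and 0.0293 TPM in LE, with no overlap between VtA and VLNT. Of 24 transcription factors known to act on keratin genes 22 were lower in VtA than in VLNT (median -1.10) and 0 were called by edgeR or DESeq2, with 3 at an unadjusted p under 0.05 in edgeR. Without LE4 and VtA1, 5 of the 24 fell in VtA against LE (Ehf, Ovol1, Hopx, Junb and Barx2), where 9.25% of all genes fell. Junb, an AP-1 factor, was at 3.16, 9.87, 34.8 and 16.4 TPM in VtA, at 98.6, 71.9, 164 and 42.4 TPM in VLNT, and at 138, 167, 107 and 4.33 TPM in LE.

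Cell cycle genes had lower and muscle genes higher fitted levels in VtA than in VLNT, and neither list held a call in that comparison by edgeR or DESeq2. Of 16 cell cycle genes 16 were lower in VtA than in VLNT (median log2 fold change -1.97), 7 of them at an unadjusted p under 0.05 in edgeR. In the fit without LE4 and VtA1, 13 of the 16 fell in VtA against LE, where 9.25% of all genes fell. Mki67, a marker of dividing cells, was at 0.198, 1.70, 5.10 and 5.53 TPM in VtA, at 17.9, 10.1, 19.1 and 7.80 TPM in VLNT, and at 13.9, 29.3, 21.6 and 0.0736 TPM in LE. Of 16 skeletal muscle genes 16 were higher in VtA than in VLNT (median 1.12), 0 of them at an unadjusted p under 0.05, and their summed level was 154400 to 207400 TPM in VtA, 57560 to 175600 TPM in VLNT, and 112800, 15910, 48040 and 208200 TPM in LE1 to LE4. Over all 12 libraries the muscle sums of the groups overlapped, but VtA2 to VtA4 (171200 to 207400 TPM) lay above LE1 to LE3. Without LE4 and VtA1, 6 of the 16 muscle genes rose in VtA against LE, where 10.4% of all genes rose. They were Acta1, Myh2, Actn3, Atp2a1, Casq1 and Ttn. LE4, which had next to no keratin, had the most muscle, and the part of tissue make-up in the levels of single genes was not tested. Of the remaining lists, 9 of 10 sebaceous gland genes (median log2 fold change -2.02), 5 of 5 simple epithelial keratins (-1.005), 10 of 10 macrophage genes (-1.16) and 6 of 11 neutrophil genes (-0.86) were lower in VtA than in VLNT. None of these were called by edgeR or DESeq2, and 0, 0, 3 and 4 of the genes tested, in the same order of lists, had an unadjusted p under 0.05 in edgeR.

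**Figure D5:**
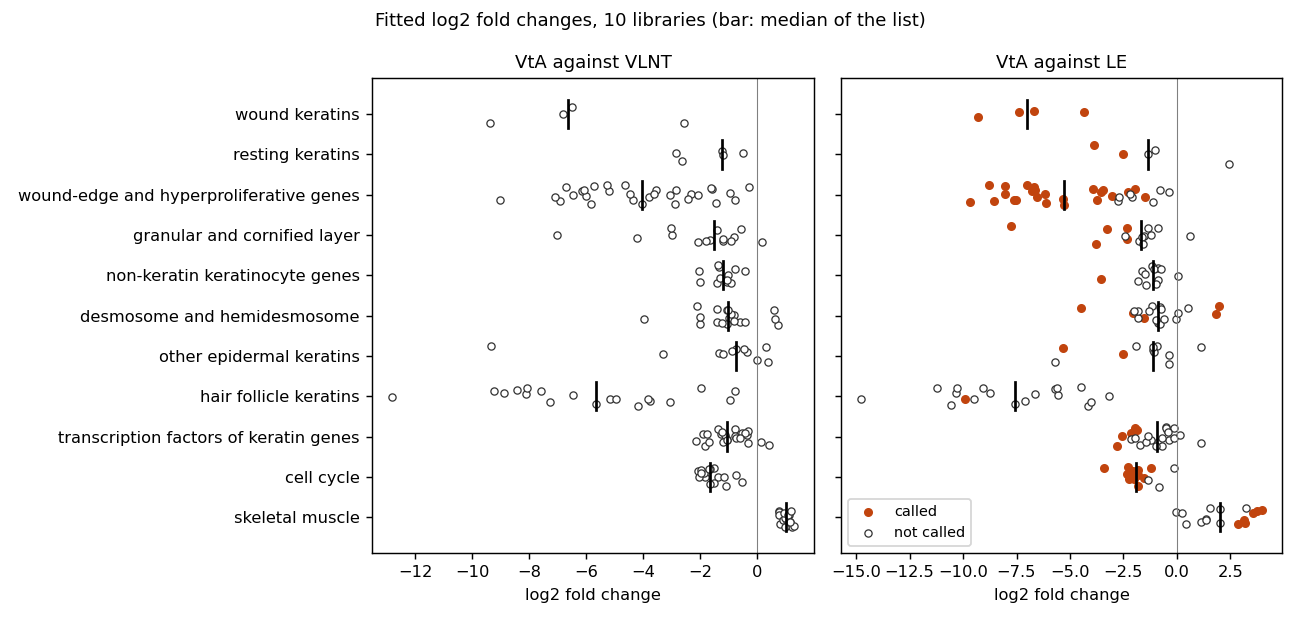
Log2 fold changes of the keratins and of 9 gene lists for VtA against VLNT (left) and VtA against LE (right) in the fit of 10 libraries, without LE4 and VtA1 (x axis; a row per list, a point per gene, bar at the median). Filled points passed an adjusted p under 0.05 in edgeR's test; the wound-edge median is -4.05 on the left and -5.29 on the right, and those of skeletal muscle are above 0.

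The genes whose levels across the 9 libraries with enough keratin reads were most like the wound to resting ratio were sought among 15081 genes with a mean of at least 1 CPM, by Pearson's r of log2 CPM with the log2 ratio. The 10 nearest were Tdh (r = 0.991), Gjb6 (0.988), Gm11597 (0.981), Sprr1b (0.981), Fam83a (0.981), Tcf23 (0.980), Rptn (0.979), Klk13 (0.976), Gjb2 (0.976) and Haspin (0.975). These libraries fall into VtA and the rest, so any gene scarce in VtA scores high. Within the 7 VLNT and LE libraries r ran between 0.658 for Tcf23 and 0.941 for Tdh. These 7 are among the 9 libraries used to pick the genes, so neither this r nor a likeness within VLNT is a separate check. Tdh, which encodes threonine dehydrogenase, was at 1.70 and 0.435 TPM in VtA3 and VtA4, at 34.9, 27.4, 37.8 and 9.0 TPM in VLNT, and at 24.0, 36.6 and 33.2 TPM in LE1 to LE3, and like the ratio it was lowest at VLNT4 within VLNT. Gjb6, connexin 30, was at 0.964 and 0.291 TPM in VtA3 and VtA4, at 41.9, 30.1, 57.3 and 7.93 TPM in VLNT, and at 26.6, 86.3 and 60.7 TPM in LE1 to LE3. Gm11597 shares sequence with Krt16, so its reads cannot be told apart from those of Krt16 over that stretch.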

How the data were processed

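RNA of whole mouse hindlimb was sequenced from poly-A libraries made with a stranded kit, per the labels' protocols. The submitters' processing notes name HISAT2 2.1.0, StringTie 2.1.3b, Trimmomatic and bcl2fastq 2.20.0, and the builds GRCh38 and mm10. The annotation, the strand setting and the handling of multiply mapped reads are not stated there. The authors deposited, per the file headers, raw read counts per gene, FPKM (not used here) and TPM. Library totals were 56042030 to 72540147 counts.

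The 9 keratins, the 14 gene lists and the rule for the genes named were chosen with earlier results of these data known. Per list, the text names members of smallest p. Others, such as Krt77, Trp63, Dsp and Shh, were named outside this rule, and Krt15 was not of smallest p in VtA against VLNT. Of 207 distinct listed genes, Krt85, Il36a, Il36g and Pi3 were not matched by symbol, and Loricrin was dropped as a second name of Lor. Ratios are of summed TPM within a library. Counts were fitted with edgeR 4.0.16 (R 4.3.3): quasi-likelihood test, TMM, default filter, all 12 libraries, Benjamini-Hochberg over 19740 genes, called at an adjusted p under 0.05; the test was checked on simulated data. CPM are counts scaled by TMM-adjusted totals. DESeq2 1.42.0, other scalings, filters and left-out libraries were alternatives. Of 18 pairs of libraries within groups 0 were identical, and the smallest chi-square per degree of freedom was 118, so each library counts once. Sequences are from GENCODE on GRCm38, coordinates of genes from RefSeq.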

Additional observations from a re-analysis of the deposited data

Results flagged for a closer look

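In 71 sets of 4 libraries, each a keratin ratio, level or share within a group, the most extreme library was set against the rest of its group with Dixon's test of the gap over the range, at the 95% level. 5 were past it, all in VtA1 or LE4, the libraries with 953 and 513 keratin counts. Chance alone passes about 1 in 20 sets.

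In VtA1 the differentiation ratio was 3.942 on the log2 scale, against 0.148 to 0.436 in VtA2 to VtA4, the log2 ratio of Krt6a to Krt5 was -1.977, against -5.827 to -5.384, and that of Krt5 to the 9 keratins was -6.017, against -2.385 to -1.887. Krt5 rested on 15 counts in this library. In LE4 the wound to resting ratio was -6.593, against -0.892 to -0.424 in LE1 to LE3, and the ratio of Krt1 to Krt10 was -2.323, against -0.415 to -0.0917. LE4 held 4 wound keratin counts, all of Krt17.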

How the results depend on the processing

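Genes called at an adjusted p under 0.05 depended on the libraries. For VtA against VLNT the count of 0 became 1 (Tcf23) with only these groups and 1 without LE4 and VtA1, and 190 with DESeq2. For VLNT against LE DESeq2 gave 2 (Ldha-ps and Gm9247). For VtA against LE it was 4004 without LE4 and VtA1, 797 with DESeq2, and 0 to 6288 over single left-out libraries, where only leaving out LE4 gave calls; the cause was not tested. The wound to resting log2 difference was below 0 in all 17 settings for VtA against VLNT and all 15 for VtA against LE. For VtA against VLNT (-3.44) it was -4.55 as a mean of log2 TPM over genes, -4.97 without Krt17 and -4.14 over non-keratin keratinocyte genes, and -3.78 to -3.10 over left-out libraries. For VtA against LE (-3.64) it was -2.29 with all 12 libraries, -5.87, -4.99 and -4.93 under the same 3 changes, -3.16 over Krt5 and Krt14 alone and -4.47 over Krt1, Krt2 and Krt10 alone, and -3.98 to -3.30 over left-out libraries. For VLNT against LE (-0.20) it was 1.27 with all 12 libraries, -1.32 as a mean over genes, -0.77 over Krt1, Krt2 and Krt10, -0.79 over non-keratin genes and -0.37 to 0.10 over left-out libraries. The differentiation difference for VtA against VLNT (0.50) was 1.39 with all 12 libraries and 0.32 to 0.65 over left-out libraries. It was 1.88 as a mean over genes and -0.01 to 1.28 over left-out libraries for VLNT against LE (0.81), and 2.53 and 0.49 to 1.79 for VtA against LE (1.31).

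Among single genes, the fold change of Krt77 for VtA against VLNT turned above 0 without the 3 libraries under 0.1% (0.80) and without LE4 and VtA1 (0.36), and that of Krt15 likewise (0.68 and 0.30). Over left-out libraries Krt77 ran between -0.72 and 0.53, Krt15 between -0.73 and 0.30, and Has3 for VtA against LE between -0.32 and 0.000914. The replicate numbers did not pair the samples: of 12 same-number correlations of deviations, -0.43 to 0.56, 3 were over 0.1, and 2 libraries correlated best with their own number. With the replicate block 0 genes were called in each comparison, and the wound to resting difference was -3.25 for VtA against VLNT and 0.10 for VLNT against LE. VtA and LE share a number in only 1 pair of libraries with enough keratin reads, so no blocked ratio was computed for them. VtA1 and LE4 had 56324771 and 70050799 counts in all, within the range of the other libraries. Their keratin ratios rest on only 953 and 513 of these counts.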
